A study of Mus musculus with 4 samples.

Results

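Endothelial cells line blood vessels, and pericytes, with smooth muscle cells the mural cells of the vessel wall, wrap around them. The 10 genes described here are used as markers of these cells: Pecam1, Cdh5, Kdr, Flt1, Tek and Tie1 for endothelium, and Rgs5, Cspg4, Mcam and Kcnj8 for mural cells. They were found by gene symbol in each table, and all 10 were present among 33126 named gene units. Endothelial growth and survival run through secreted VEGF acting on the receptors Kdr and Flt1, and through angiopoietins acting on the receptor Tek and its relative Tie1. Endothelial cells in turn recruit mural cells, and in skin the vessels run through the dermis.

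Messenger RNA was sequenced from dermal cells of mouse embryos carrying the Axin2-LacZ reporter, LacZ at a feedback gene of Wnt signalling, to ask how Wnt activity relates to gene expression in skins that form different appendages. The foot skin was ventral and at E17.5, and the back skin was dorsal and at E14.5. Fluorescence sorting by the reporter gave 1 positive-labelled and 1 negative-labelled fraction per skin, which makes 4 groups with 1 library each. The labels give the Axin2-LacZ reporter for all 4 groups; the sources used here give no strain, sex, litter or pooling of embryos. Site and stage change together, so they cannot be told apart in any foot against back comparison. With 1 library per group no difference has a replicate check, and neither p-values nor standard errors are given.

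Values are FPKM, which count fragments relative to transcript length and to the size of the library, with the lower and upper bounds the authors' software gave, which cover counting and read assignment only. Their confidence level is not stated, and sequencing depth per library is unknown from these tables. Among protein-coding units of at least 5 FPKM the bounds reached a median of 22.9% and 14% of the FPKM to either side in the positive- and negative-labelled foot libraries, and 8.90% and 9.84% in the positive- and negative-labelled back libraries, so foot values are the less precise. A value of 0 can be a failed estimate and is written as listed at 0, with no fold. Of 17155 protein-coding units, 7519 and 6778 were listed at 0 in the positive- and negative-labelled foot libraries, and 5362 and 5089 in the positive- and negative-labelled back libraries. Axin2 transcript measured 9.65 FPKM (7.10 to 12.5) in the positive-labelled foot library and 12.9 FPKM (10.2 to 15.3) in the one labelled negative. In the back it measured 4.49 FPKM (3.89 to 5.09) in the positive-labelled library and 3.13 FPKM (2.63 to 3.64) in the negative-labelled one; after rescaling the back log2 ratio was 0.28 ± 0.25 with overlapping bounds. The foot log2 ratio after rescaling was -0.14 ± 0.45, smaller in size than its half-width. The foot order goes against the label with overlapping bounds, so directions in the foot follow the label alone.

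Fibroblast genes, which mark the dermis, were abundant in every library: all 8 of the list exceeded 5 FPKM, and they summed to 7141 and 6714 FPKM in the positive- and negative-labelled foot libraries and to 4355 and 3070 FPKM in the positive- and negative-labelled back libraries. The 6 endothelial genes summed to 1.04 and 0.461 FPKM in the same foot libraries and to 3.91 and 2.85 FPKM in the same back libraries. The 4 mural genes summed to 11.7 and 7.49 FPKM in the foot and 8.48 and 3.45 FPKM in the back, labelled positive before negative. The vascular markers were therefore low beside the fibroblast genes in every library, and only Rgs5 and Kcnj8 reached 5 FPKM in any library. In bulk libraries fewer cells of a type and less RNA per cell cannot be told apart.

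The promoters of the markers on which the results turn are given here from RefSeq (GRCm38.p6, whereas the expression tables use mm9), each 250 bases before to 50 after the gene's start, 5′ to 3′ on the gene's strand. Kcnj8 and Abcc9 are shown because they encode the 2 subunits of one channel and had like positive to negative ratios, Rgs5 because its foot to back ratio went the other way from that of Kcnj8, and Tek and Tie1 because they are paired receptors with back log2 ratios of 0.80 and 0.01. Capitals mark 1 of 3 searched strings on either strand: AGGAAG and CCGGAAGT, which ETS factors bind, and AACAAT, which SOX factors bind.
Kcnj8 at chr6:142571565-142571864 (minus strand): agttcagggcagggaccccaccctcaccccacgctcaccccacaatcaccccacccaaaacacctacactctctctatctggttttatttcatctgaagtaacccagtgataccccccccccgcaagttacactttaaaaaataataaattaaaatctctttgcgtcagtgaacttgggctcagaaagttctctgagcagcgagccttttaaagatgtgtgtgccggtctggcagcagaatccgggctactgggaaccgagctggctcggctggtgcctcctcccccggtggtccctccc
Abcc9 at chr6:142702225-142702524 (minus strand): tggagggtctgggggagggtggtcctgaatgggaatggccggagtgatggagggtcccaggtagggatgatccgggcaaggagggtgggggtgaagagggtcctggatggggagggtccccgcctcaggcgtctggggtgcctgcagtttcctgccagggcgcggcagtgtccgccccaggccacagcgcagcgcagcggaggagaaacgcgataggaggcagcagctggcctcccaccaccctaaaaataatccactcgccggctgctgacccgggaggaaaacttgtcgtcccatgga
Rgs5 at chr1:169655251-169655550 (plus strand): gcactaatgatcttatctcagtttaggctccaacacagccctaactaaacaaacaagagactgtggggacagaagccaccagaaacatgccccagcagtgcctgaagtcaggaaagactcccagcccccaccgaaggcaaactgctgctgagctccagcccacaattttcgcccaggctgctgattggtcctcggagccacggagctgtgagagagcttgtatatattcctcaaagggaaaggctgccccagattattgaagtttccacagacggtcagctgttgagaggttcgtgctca
Tek at chr4:94739039-94739338 (plus strand): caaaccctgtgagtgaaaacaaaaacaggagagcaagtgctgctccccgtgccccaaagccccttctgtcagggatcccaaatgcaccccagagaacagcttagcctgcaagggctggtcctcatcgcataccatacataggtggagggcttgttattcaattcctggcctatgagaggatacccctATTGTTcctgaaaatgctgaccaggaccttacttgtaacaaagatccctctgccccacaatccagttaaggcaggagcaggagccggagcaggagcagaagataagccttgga
Tie1 at chr4:118489800-118490099 (minus strand): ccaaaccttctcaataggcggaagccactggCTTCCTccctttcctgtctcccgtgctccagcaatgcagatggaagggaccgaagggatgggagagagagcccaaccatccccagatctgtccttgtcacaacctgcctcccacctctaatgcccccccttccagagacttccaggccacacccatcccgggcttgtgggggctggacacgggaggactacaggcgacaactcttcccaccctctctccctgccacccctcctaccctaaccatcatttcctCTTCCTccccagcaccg

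Of the 10 markers 8 had a promoter in the table, all but Pecam1 and Cdh5. AGGAAG was present in the promoters of 2 of these 8 genes, Flt1 and Tie1, each with 2 matches, against 35.4% of 32851 promoters of the same length. CCGGAAGT was in none of the 8, against 3.89% of all promoters. AACAAT was in 1 of 8, in Tek, against 10.7%. No capitals stand in the windows of Kcnj8, Abcc9 and Rgs5. A match describes these letters only and says nothing of whether a factor binds.

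The clearest pattern among the endothelial genes was between skins: 3 of the 6 were listed at 0 in both foot libraries while all 6 had a value in both back libraries. Of all protein-coding units 37.1% were listed at 0 in both foot libraries, and of those above 0 in both back libraries 9.99%. Pecam1, an adhesion molecule of endothelial junctions, was listed at 0 in the positive- and negative-labelled foot libraries, against 0.808 FPKM (0.556 to 1.08) and 0.886 FPKM (0.602 to 1.17) in the positive- and negative-labelled back libraries. Cdh5, the cadherin of endothelial junctions, was listed at 0 in both foot libraries, against 0.997 FPKM (0.808 to 1.19) in the positive-labelled back library and 0.846 FPKM (0.668 to 1.02) in the one labelled negative. Both genes thus had similar levels in the back fractions, and their bounds overlapped there. Tie1, the orphan relative of the angiopoietin receptor, was also listed at 0 in both foot libraries, against 0.261 FPKM (0.167 to 0.358) and 0.226 FPKM (0.121 to 0.333) in the positive- and negative-labelled back libraries.

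How often genes of a like back level were listed at 0 in both foot libraries depended on that level, and was counted over all protein-coding units with both back values in a range. These ranges were chosen after the values were seen. Pecam1 and Cdh5 lie between 0.5 and 1.2 FPKM in the back, a range in which 6.33% of 679 units were listed at 0 in both foot libraries. In a wider range, 0.2 to 1.2 FPKM, this held for 3 of the 5 markers and for 11.4% of 1576 units. Tie1 lies between 0.1 and 0.5 FPKM, where 24.7% of 924 units were so listed, so a weakly expressed gene listed at 0 in the foot was common.

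Neither receptor for VEGF was listed at 0 in both foot libraries. Kdr, the main signalling receptor for VEGF, had 0.824 FPKM (0.408 to 1.25) in the positive-labelled foot library and 0.439 FPKM (0.263 to 0.621) in the one labelled negative, against 0.431 FPKM (0.329 to 0.535) and 0.477 FPKM (0.364 to 0.591) in the positive- and negative-labelled back libraries. The bounds of all 4 values overlapped, and Kdr was the 1 endothelial marker whose lower bound lay above 0 in every library. Flt1, a VEGF receptor that also acts as a decoy, was near the lower limit everywhere. It had 0.0643 FPKM (0 to 2.30) in the positive-labelled foot library and was listed at 0 in the one labelled negative, against 0.224 FPKM (0.128 to 0.524) and 0.141 FPKM (0.0680 to 0.497) in the positive- and negative-labelled back libraries. The order of the Flt1 levels cannot be read, since these bounds overlap wherever a value is above 0.

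Tek, the receptor for angiopoietins, had the largest back ratio of the endothelial markers. Tek had 1.19 FPKM (0.771 to 1.66) in the positive-labelled back library and 0.273 FPKM (0.136 to 0.528) in the one labelled negative. These bounds did not overlap. The ratio was 0.80 ± 0.40 on the log2 scale, where ratios are taken of rescaled FPKM plus 1 and the half-width joins the bounds of both libraries. That is less than 2-fold on this scale, which understates ratios of low genes; with 0.1 FPKM added in place of 1 the log2 ratio was 1.69. The other 5 endothelial genes had back log2 ratios between -0.16 and 0.08, all smaller than their half-widths. In the foot Tek had 0.155 FPKM (0 to 1.55) in the positive-labelled library and 0.0218 FPKM (0 to 0.606) in the one labelled negative, with bounds that reach 0. The Tek locus (chr4:94405980-94541667 in mm9) also holds short unnamed entries, described in the closing section, whose part in its values was not tested, and in the positive-labelled back library its entry carries an assembled rather than an annotated identifier.

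**Figure D1:**
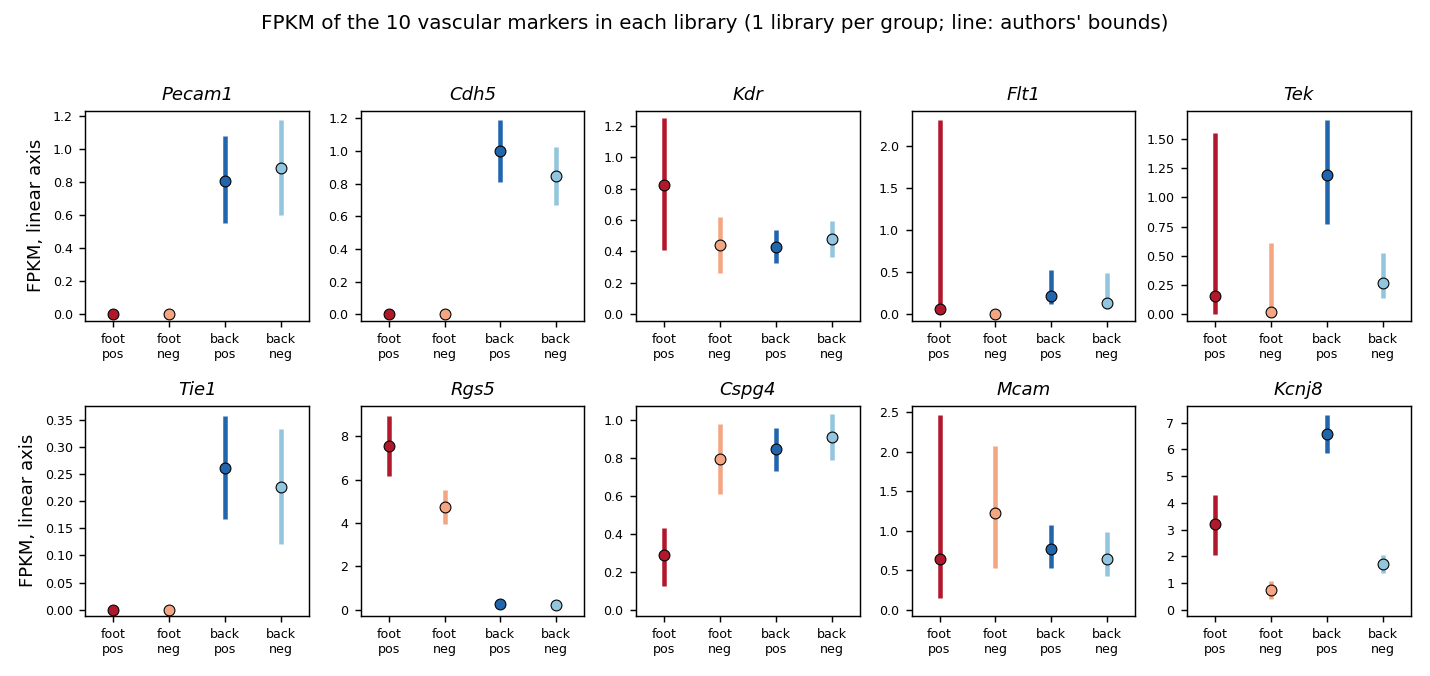
FPKM of each marker on a linear axis (own scale per panel) in each library, as labelled; points are the deposited values of 1 library each and lines the authors' bounds. Pecam1, Cdh5 and Tie1 sit at 0 in both foot libraries, Rgs5 stands at 7.53 and 4.74 FPKM in the foot libraries and under 0.3 FPKM in the back, and Kcnj8 is higher in the positive-labelled library in both skins.

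Among mural genes Rgs5, a regulator of G protein signalling and a marker of pericytes, was the one with the widest spread between skins. It had 7.53 FPKM (6.16 to 8.95) in the positive-labelled foot library and 4.74 FPKM (3.96 to 5.54) in the one labelled negative, against 0.283 FPKM (0.171 to 0.40) and 0.199 FPKM (0.0779 to 0.327) in the positive- and negative-labelled back libraries. The foot values lie above 79.2% and 71.1% of protein-coding units in the positive- and negative-labelled libraries, and the back values above 45.5% and 44.3%. The foot against back log2 ratio was 2.58 ± 0.27 for the libraries labelled positive and 1.88 ± 0.26 for those labelled negative. Within the foot the ratio of the positive-labelled library over the one labelled negative was 0.77 ± 0.30, with bounds that did not overlap and a fold under 2, and within the back it was 0.07 ± 0.23.

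Kcnj8, the pore-forming subunit of the ATP-sensitive potassium channel of mural cells, was the 1 marker whose bounds lay higher in the positive-labelled library, without overlap, in both skins. It had 3.20 FPKM (2.06 to 4.31) in the positive-labelled foot library and 0.742 FPKM (0.396 to 1.07) in the one labelled negative. In the back it had 6.58 FPKM (5.88 to 7.28) in the positive-labelled library and 1.70 FPKM (1.36 to 2.05) in the one labelled negative. Neither pair of bounds overlapped. The log2 ratio was 1.33 ± 0.46 in the foot and 1.41 ± 0.24 in the back, and the ratio of rescaled FPKM with nothing added was 5.17 and 3.42. The difference of the log2 ratios, foot minus back, was -0.08 ± 0.52, so no difference in ratio between skins was detectable within the bounds. This holds for the foot fractions as labelled, a label that the foot Axin2 log2 ratio of -0.14 ± 0.45 does not settle. With them exchanged the foot ratio would change sign and the skins would differ.

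A unit was counted as higher or lower when its log2 ratio was at least 1 in size and its larger FPKM at least 5. In the back 1 of 1 marker that reached this level, Kcnj8, was higher in the positive-labelled library, against 4.64% of 6902 units higher and 3.71% lower. With the level lowered to 1 FPKM it was 1 of 2, against 4.54% of units higher and 3.75% lower. In the foot 0 of 1, Rgs5, was called, against 11% of 8219 units higher and 10.8% lower. With the level lowered to 1 FPKM, Kcnj8 was higher in the positive-labelled foot library, as 1 of 3 markers measured, where 11.1% of units were higher and 11.2% lower. With FPKM as deposited the calls split differently: 692 higher and 1263 lower in the foot, against 902 and 888 after rescaling, and 416 higher and 212 lower in the back, against 320 and 256.

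Cspg4, the proteoglycan on pericytes and on glial precursors, had 0.287 FPKM (0.127 to 0.433) in the positive-labelled foot library and 0.795 FPKM (0.613 to 0.979) in the one labelled negative. In the back it had 0.847 FPKM (0.732 to 0.962) and 0.910 FPKM (0.789 to 1.03) in the positive- and negative-labelled libraries. The positive-labelled foot library was thus the low one, with a foot log2 ratio of -0.35 ± 0.20 and bounds apart from the other 3 libraries. The back ratio was -0.15 ± 0.14 with overlapping bounds. Mcam, an adhesion molecule found on endothelial and mural cells alike, had 0.639 FPKM (0.153 to 2.46) and 1.22 FPKM (0.530 to 2.07) in the positive- and negative-labelled foot libraries, against 0.767 FPKM (0.529 to 1.08) and 0.640 FPKM (0.428 to 0.983) in the positive- and negative-labelled back libraries. All 4 bounds overlapped.

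**Figure D2:**
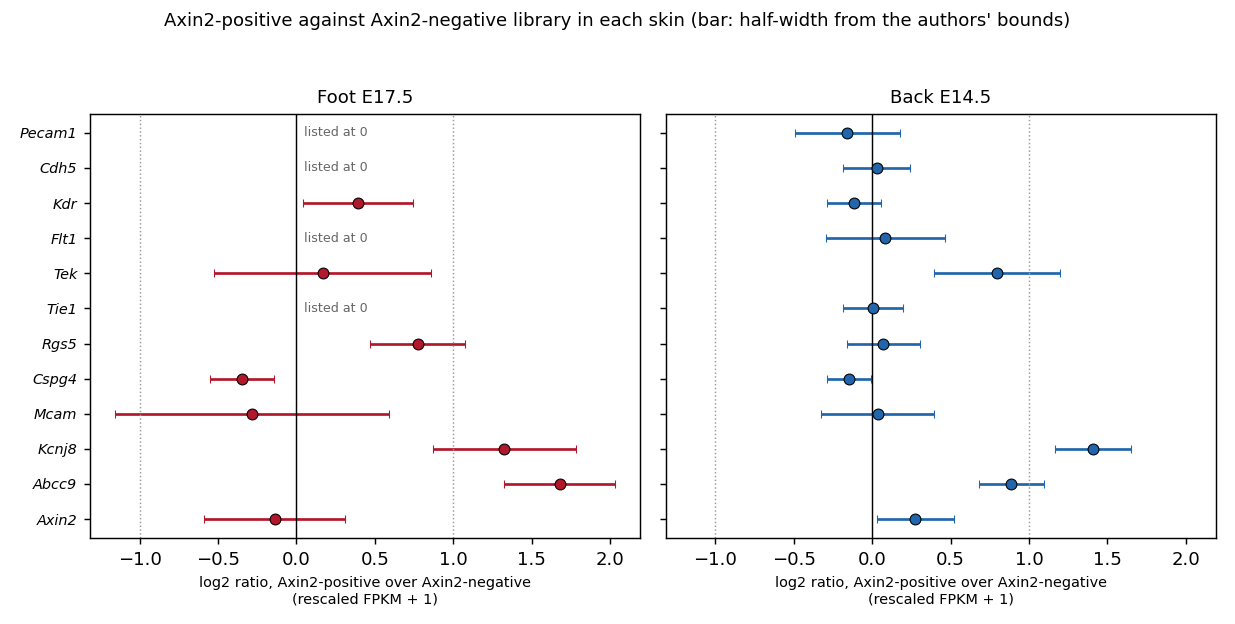
Log2 ratio of the positive-labelled library over the one labelled negative (rescaled FPKM + 1) for each marker, Abcc9 and Axin2, foot at left and back at right; bars are half-widths from the authors' bounds, dotted lines a fold of 2, and genes listed at 0 in a compared library have no point. Kcnj8 lies beyond a fold of 2 in both skins, at 1.33 and 1.41, while most other markers lie within 0.5 of 0.

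Abcc9, the sulfonylurea receptor that assembles with Kcnj8 into the channel, was read beside it. The genes are neighbours on mouse chromosome 6, Kcnj8 at chr6:142513459-142519876 and Abcc9 at chr6:142536382-142650794 in mm9. Abcc9 had 5.29 FPKM (4.04 to 6.54) in the positive-labelled foot library and 1.08 FPKM (0.742 to 1.42) in the one labelled negative, against 1.40 FPKM (1.19 to 1.61) and 0.308 FPKM (0.191 to 0.431) in the positive- and negative-labelled back libraries. Its log2 ratio between the fractions was 1.68 ± 0.35 in the foot and 0.89 ± 0.21 in the back, or 5.87 and 4.01 as ratios of rescaled FPKM with nothing added. Both subunits were thus higher in the positive-labelled library within each skin, with bounds that did not overlap.

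Between skins the subunits went opposite ways in the libraries labelled positive. The foot against back log2 ratio there was -1.10 ± 0.41 for Kcnj8 and 1.18 ± 0.32 for Abcc9, and for the libraries labelled negative it was -1.02 ± 0.31 and 0.39 ± 0.26. The FPKM of Kcnj8 over that of Abcc9, both per length, was 0.606 (0.315 to 1.07 by the bounds) and 0.687 (0.278 to 1.44) in the positive- and negative-labelled foot libraries, against 4.70 (3.66 to 6.11) and 5.52 (3.15 to 10.7) in the positive- and negative-labelled back libraries. This ratio was chosen after the values were seen. It was alike in the fractions of 1 skin and did not overlap between skins. The Kcnj8 entry carries an annotated identifier in both foot libraries and an assembled one in both back libraries. Its model thus changes together with the skin, and the part of this in the foot against back ratios was not tested. A short unnamed entry lies inside Kcnj8 in the negative-labelled foot library, and its part in the foot values was not tested.

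For the libraries labelled positive, foot against back, 2 markers reached 5 FPKM: Rgs5 was higher in the foot and Kcnj8 lower, where 14.9% of 8011 units were higher and 15.7% lower. At 1 FPKM Tek was also lower, at -1.04 ± 0.71 with overlapping bounds, as 1 of 2 lower among 3 markers, where 13.5% of units were higher and 17.3% lower. For the libraries labelled negative no marker reached 5 FPKM, where 14.1% of 7967 units were higher and 13.1% lower. At 1 FPKM Rgs5 was higher and Kcnj8 lower there among 3 markers, where 12.3% of units were higher and 14.1% lower. The calls of lower Kcnj8 and Tek in the foot rest on the rescaling: with FPKM as deposited the log2 ratios were -0.85 and -0.92 for the libraries labelled positive, and -0.63 for Kcnj8 in those labelled negative. The Rgs5 calls did not change under any scaling tried. As deposited, 1721 units were higher and 915 lower for the libraries labelled positive, against 1191 and 1257 after rescaling, and 3012 higher and 419 lower for those labelled negative, against 1121 and 1043.

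The median log2 ratio of the 6 endothelial markers was 0.04 in the foot and 0.02 in the back, labelled positive over negative, where the medians over all units tested were -0.0026 and 0.0059. Against the back, the foot median was -0.65 for the libraries labelled positive and -0.39 for those labelled negative, beside 0.05 and 0.07 over all units. Genes listed at 0 are included in these medians, although a 0 can be a failed estimate. Without them the foot against back medians were -0.24 over 3 genes for the libraries labelled positive and -0.34 over 2 genes for those labelled negative. For the 4 mural markers the same medians were 0.24, 0.05, -0.43 and -0.17, and the last became 0.17 with FPKM as deposited.

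Other endothelial genes were read beside the markers. Of 18 further endothelial units, 12 and 9 were listed at 0 in the positive- and negative-labelled foot libraries and 0 in either back library. In both foot libraries 8 were at 0. Of all protein-coding units 43.8% and 39.5% were at 0 in these foot libraries, and 37.1% in both. Of the 14 genes of the list matched as protein-coding, all above 0 in both back libraries, 6 were at 0 in both foot libraries. This held for 9.99% of protein-coding units above 0 in both back libraries, a share not matched by back level. Esam, Emcn and Icam2, surface proteins of endothelial cells named here after their values were seen, were the 3 of this list with both back values between 1.2 and 5 FPKM. All 3 were listed at 0 in both foot libraries, against 1.52% of 2440 units in that range. Over the wider range of 0.2 to 5 FPKM this held for 5 of 9 genes of the list, taking its 14 genes matched as protein-coding, and for 3 of 5 markers, against 5.33% of 4803 units. At lower back levels the list stood nearer to all units: 1 of 5 genes from 0.2 to 1.2 FPKM, against 11.4%, and 1 of 5 from 0.1 to 0.5 FPKM, against 24.7%. Eltd1 and Gpr116, also listed at 0 in both foot libraries, are not among the 14 genes matched. Eltd1 had 0.415 and 0.138 FPKM in the positive- and negative-labelled back libraries, within the last range, so that count leaves it out. Icam2, for example, had 2.93 FPKM (1.93 to 3.92) and 1.47 FPKM (0.850 to 2.26) in the positive- and negative-labelled back libraries. Ecscr, an endothelial surface protein that regulates chemotaxis, was listed at 0 in the positive-labelled foot library and had 2.07 FPKM (0.748 to 3.84) in the one labelled negative, against 15.3 and 14.2 FPKM in the back, where the first value lies above its own upper bound of 14.9 FPKM.

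Clec14a, an endothelial lectin-like surface protein, was called higher in the foot for the libraries labelled positive. It had 12.7 FPKM (lower bound 10.9) in the positive-labelled foot library and 4.21 FPKM (3.57 to 4.84) in the one labelled negative, against 0.482 FPKM (0.371 to 0.594) and 0.280 FPKM (0.186 to 0.371) in the positive- and negative-labelled back libraries. Its log2 ratio was 1.58 ± 0.25 in the foot, and 3.03 ± 0.22 for foot against back in the libraries labelled positive. In the foot it was thus high in libraries where Pecam1 and Cdh5 were listed at 0. Tmem100, a membrane protein of arterial endothelium and one of the highest of the list, also had more in the foot, at 60.9 and 56.3 FPKM in the positive- and negative-labelled foot libraries, against 30.4 and 26.4 FPKM in the back. Its foot against back log2 ratio was 0.68 ± 0.19 and 0.34 ± 0.15 for the libraries labelled positive and negative, under a fold of 2, with overlapping rescaled bounds in those labelled negative; the values of the negative-labelled foot library and the positive-labelled back library lie above their own upper bounds of 55.9 and 29.2 FPKM. Clec14a was the 1 unit called among 4 of the list tested in the foot, whose median was 0.30. There 11% of all units were higher and 10.8% lower. In the back 0 of 4 were called, with a median of 0.15, against 4.64% higher and 3.71% lower. Foot against back, 5 were tested for the libraries labelled positive, with Clec14a higher and Ecscr, listed at 0 in the foot, lower. There 14.9% of all units were higher and 15.7% lower. For those labelled negative 1 of 4 was lower, Ecscr, where 13.1% were lower. Ramp2 and Egfl7 of this list are joined with other genes in these tables and cannot be read alone.

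Of 10 co-receptors and partners of these receptors, 3 were tested in each comparison and none was called within either skin. Of all units, 11% were higher and 10.8% lower in the foot, and 4.64% higher and 3.71% lower in the back. The 3 tested were Pdgfrb and 2 units that join a co-receptor with another gene. These units were that of Nrp1, a co-receptor for VEGF, and that of Eng, a co-receptor of TGF-beta signalling in endothelium. The Nrp1 unit had 16.8 and 21.5 FPKM in the positive- and negative-labelled foot libraries, against 28.8 and 19.5 FPKM in the back. It was called lower in the foot for the libraries labelled positive, at -1.04 ± 0.35, as 1 of 3. There 15.7% of all units were lower. Pdgfrb was called lower for those labelled negative, also 1 of 3, where 13.1% of all units were lower. The Eng unit had 8.26 and 5.69 FPKM in the positive- and negative-labelled foot libraries, against 4.89 and 5.53 FPKM in the back, with overlapping rescaled bounds in every comparison.

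Endothelial transcription factors ranged from listed at 0 to 27.0 FPKM. Of 14, 6 were listed at 0 in both foot libraries, among them Sox7, Sox17 and Tal1, where 37.1% of all protein-coding units were so listed. One of the 6, Lyl1, was also listed at 0 in both back libraries. Among units above 0 in both back libraries, 5 of 13 factors and 9.99% of 11164 protein-coding units were listed at 0 in both foot libraries. This share is not matched by back level. Of these factors Sox7, Sox17, Tal1 and Etv2 had back values of at most 0.225 FPKM, and Gata2 had 0.783 and 1.82 FPKM. From 0.1 to 0.5 FPKM in the back, 24.7% of 924 units were listed at 0 in both foot libraries. Ets2, an ETS factor used by many cell types, had 27.0 FPKM (23.2 to 30.8) in the positive-labelled foot library and 14.4 FPKM (12.6 to 16.2) in the one labelled negative, a log2 ratio of 1.1 ± 0.26. It was the 1 factor called of 3 tested in the foot, where 11% of all units were higher and 10.8% lower. In the back 0 of 2 were called, where 4.64% of all units were higher and 3.71% lower. Mef2c, a factor of muscle as well as endothelium, had 5.98 and 9.61 FPKM in the positive- and negative-labelled foot libraries, against 1.59 and 1.63 FPKM in the back. Mef2c was called higher in the foot as 1 of 3 factors tested for each label. Its log2 ratio was 1.21 ± 0.26 for the libraries labelled positive and 1.43 ± 0.34 for those labelled negative. Of all units 14.9% and 14.1% were higher there. Among 7 artery and vein genes 0 of 3 were called in the foot, where 11% of all units were higher and 10.8% lower. In the back 0 of 2 were called, against 4.64% higher and 3.71% lower. Foot against back, 0 of 2 were called for the libraries labelled positive, against 14.9% higher and 15.7% lower. For those labelled negative 1 of 3 was higher, Nr2f2, a factor of venous identity, at a log2 ratio of 1.23 ± 0.23. There 14.1% of all units were higher. Of 5 lymphatic genes Pdpn alone was tested, a gene that fibroblasts also express. It was lower in the positive-labelled foot library (-1.10 ± 0.34), where 10.8% of all units were lower. It was higher in the positive-labelled back library (1.03 ± 0.22), where 4.64% of all units were higher.

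**Figure D3:**
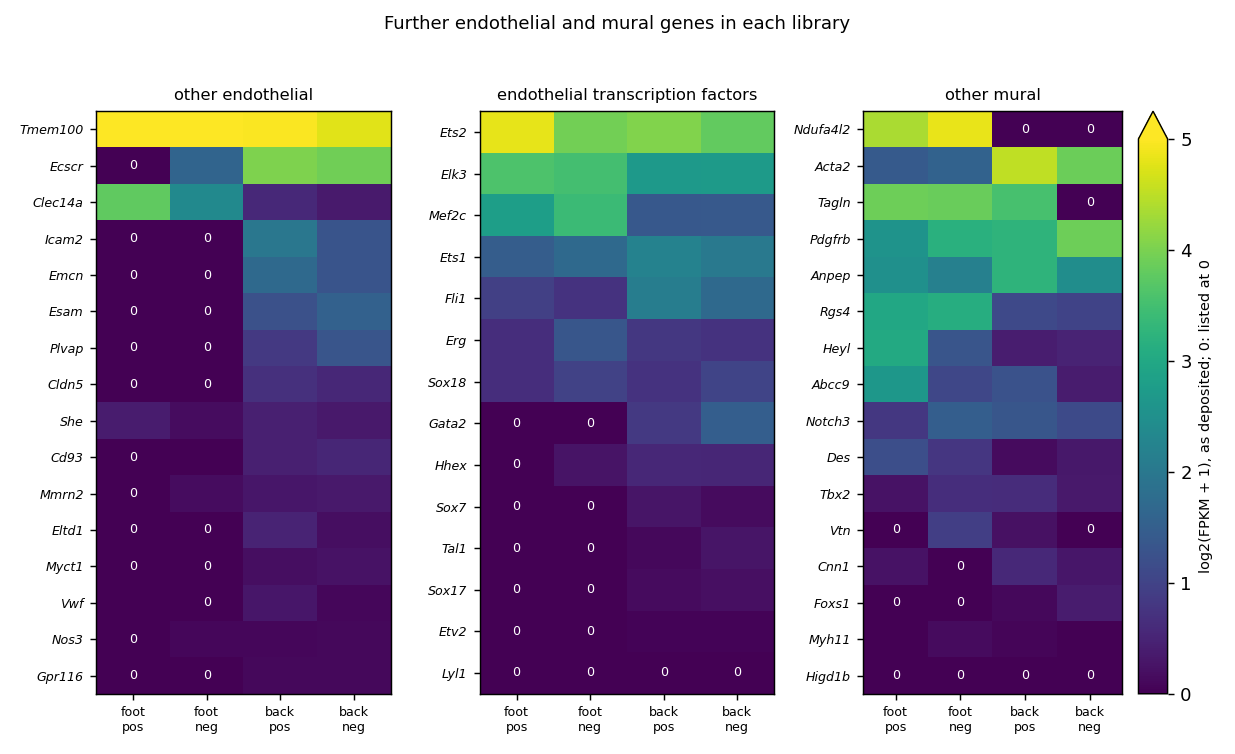
Colour gives log2(FPKM + 1), as deposited, for further endothelial genes, endothelial transcription factors and further mural genes (rows) in each library as labelled (columns); a printed 0 marks a gene listed at 0, colours saturate at 5, and joined units are left out. In the panel of further endothelial genes 12 and 9 rows are at 0 in the positive- and negative-labelled foot columns, while Clec14a, Rgs4 and Ndufa4l2 are brighter in the foot than in the back.

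Further mural genes did not move as 1 group. Of 16, 2 were called higher in the positive-labelled foot library among 6 tested, Abcc9 and Heyl, where 11% of all units were higher. However, the lower bound of Heyl, a Notch target, was 0 beside a value of 7.23 FPKM. In the back Tagln, an actin-binding protein of smooth muscle, was at 10.7 FPKM in the positive-labelled library and listed at 0 in the one labelled negative. It thus has no fold there. Apart from Tagln 0 of the 3 other units tested in the back were called, where 4.64% of all units were higher and 3.71% lower. Over the 12 units above 0 in both compared libraries the median log2 ratio was 0.06 in the foot and 0.08 in the back. Between skins, in the libraries labelled positive, 4 of 8 tested were counted higher in the foot (Abcc9, Ndufa4l2, Heyl and Rgs4) and 1 lower (Acta2), where 14.9% of all units were higher and 15.7% lower. In those labelled negative 3 of 5 were counted higher (Ndufa4l2, Rgs4 and Tagln) and 2 lower (Pdgfrb and Acta2), where 14.1% were higher and 13.1% lower. Ndufa4l2 in both counts, and Tagln, rest on a back value listed at 0 and have no fold. Rgs4, a relative of Rgs5 named here after its values were seen, had 6.97 and 7.65 FPKM in the positive- and negative-labelled foot libraries, against 1.14 and 1.01 FPKM in the back. Acta2, the actin of smooth muscle and of contractile fibroblasts, had 1.67 and 1.98 FPKM in the positive- and negative-labelled foot libraries, against 21.9 and 13.7 FPKM in the back. Pdgfrb, the receptor through which mural cells are recruited and which fibroblasts also carry, had 4.96 and 8.07 FPKM in the positive- and negative-labelled foot libraries and 8.56 and 14 FPKM in the back ones. Its log2 ratio was -0.37 ± 0.29 in the foot and -0.83 ± 0.13 in the back, opposite in sign to that of Kcnj8. Higd1b, a marker of pericytes, was listed at 0 in all 4 libraries.

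Ligands of these receptors were measured in the same libraries. Of 11, 5 were tested in the foot, where Vegfa and Pgf were lower in the positive-labelled library and none was higher, where 10.8% of all units were lower and 11% higher; the median was -0.26. Foot against back, Vegfa and Vegfb were lower among 4 tested for the libraries labelled positive, where 14.9% of units were higher and 15.7% lower. Of 8 ligands above 0 FPKM in both, 0 had a ratio above 0, while the median over all units tested was 0.05. The share of all units with a ratio above 0 was not counted. For the libraries labelled negative 0 of 4 were called, where 14.1% of units were higher and 13.1% lower. Vegfa, the main ligand of Kdr, had 1.58 FPKM (1.0 to 4.89) in the positive-labelled foot library and 8.76 FPKM (7.09 to 10.5) in the one labelled negative, a log2 ratio of -1.65 ± 0.80. In the back it had 6.51 FPKM (5.89 to 7.14) and 4.71 FPKM (4.05 to 5.40) in the positive- and negative-labelled libraries, a log2 ratio of 0.25 ± 0.22. Pgf, a ligand of Flt1, had 1.19 FPKM (0.518 to 1.94) in the positive-labelled foot library and 8.73 FPKM (6.57 to 9.91) in the one labelled negative, a log2 ratio of -1.87 ± 0.52. In the back Pgf had 3.64 and 3.95 FPKM in the positive- and negative-labelled libraries, with overlapping bounds. The positive-labelled foot library was thus the lowest of the 4 for both ligands. In the back no ligand of 4 tested was called, where 4.64% of all units were higher and 3.71% lower. The back median of the ligands tested was 0.23.

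Figf, Vegfb and Vegfc were not called within either skin. Figf, the gene of VEGF-D, which acts on lymphatic and blood endothelium, had 19.1 and 19.0 FPKM in the positive- and negative-labelled foot libraries and 21.9 and 12.7 FPKM in the back ones, with a back log2 ratio of 0.57 ± 0.16. Vegfb, a ligand of Flt1, had 6.88 and 10.2 FPKM in the foot and 15.4 and 12.8 FPKM in the back. Vegfc, a ligand of the lymphatic receptor Flt4, had 5.50 and 4.29 FPKM in the foot and 5.07 and 3.78 FPKM in the back. Angpt1, the ligand that activates Tek, stayed under 5 FPKM and was added after its values were seen. It had 0.202 FPKM (0 to 0.455) in the positive-labelled foot library and 1.37 FPKM (1.03 to 1.71) in the one labelled negative, against 0.692 FPKM (0.439 to 0.948) and 0.291 FPKM (0.191 to 0.382) in the positive- and negative-labelled back libraries.

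**Figure D4:**
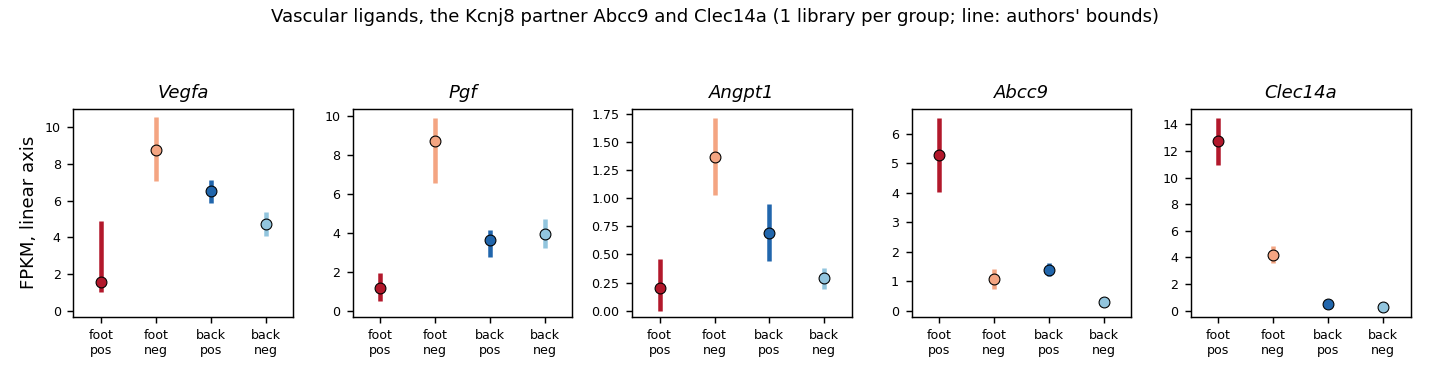
FPKM on a linear axis (own scale per panel) of Vegfa, Pgf, Angpt1, Abcc9 and Clec14a in each library as labelled; points are 1 library each and lines the authors' bounds. The 3 ligands are lowest in the positive-labelled foot library, at 1.58, 1.19 and 0.202 FPKM, where Abcc9 and Clec14a are highest, at 5.29 and 12.7 FPKM.

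Markers of other cells moved with some of these comparisons, and their part in the marker ratios was not tested. In the back the 8 leukocyte genes summed to 4.05 FPKM in the positive-labelled library and 16.6 FPKM in the one labelled negative, with 8 of 8 ratios below 0 and none listed at 0. The platelet and erythroid list summed to 1609 and 12748 FPKM in the same back libraries, nearly all from the globin locus. The globin values there, 1603 and 12727 FPKM, lie above their own upper bounds of 1188.5 and 9651.3 FPKM, so these sums are uncertain as levels. Keratinocyte genes summed to 61.4 and 26.3 FPKM in the back with 7 of 7 ratios above 0. Fibroblast genes had a back median log2 ratio of 0.51, with 6 of 8 above 0, so Kcnj8 at 1.41 and Pdgfra at 1.28 ± 0.10 stood above that median. In the positive- and negative-labelled foot libraries the leukocyte genes summed to 0.788 and 4.72 FPKM, with 6 and 4 of 8 listed at 0, and the keratinocyte genes to 7.52 and 0.184 FPKM, with 5 and 6 of 7 at 0. The platelet and erythroid list summed to 895 and 1182 FPKM in these foot libraries, where the globin values also lie above their upper bounds of 498.76 and 621.54 FPKM. Schwann cell and melanocyte genes summed to 2.59 and 1.09 FPKM in the foot and 1.02 and 0.774 FPKM in the back, labelled positive before negative. Fibroblast genes had a foot median of 0.34, with 6 of 8 above 0.

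Likeness of profile was measured as the distance between rescaled log2(FPKM + 1) values, centred on their mean over the 4 libraries, among 5774 protein-coding units of at least 5 FPKM in a library. A median profile took the median level in each library, so different genes can supply it from library to library. The 5 units nearest to the median endothelial profile were Cacybp, Crebbp, Med27, Ola1 and Cops6. Median endothelial levels were 0.0322 and 0 FPKM in the positive- and negative-labelled foot libraries and 0.62 and 0.375 FPKM in the back ones. Adding 1 FPKM understates ratios at such levels. Cacybp, the nearest, had 51.6 and 60.7 FPKM in the foot and 70.2 and 55.5 FPKM in the back. Nearness here thus does not mean a value near 0 in the foot. The 5 units nearest to the median mural profile were Ints10, Bod1, Palld, Hyls1 and Cpsf7. Ints10 had 10.7 FPKM in the positive-labelled foot library and 6.47 FPKM in the positive-labelled back one. That order is opposite to the median of the mural foot against back ratios there, -0.43. Kcnj8 and Rgs5 were also taken alone, a choice made after the values were seen. Nearest to Kcnj8 were Apod, Agrn, Scrib, Mbd1 and Krr1. Apod, a secreted lipid carrier, had 39.8 and 16.6 FPKM in the positive- and negative-labelled foot libraries and 57.2 and 18.2 FPKM in the back ones, at a distance of 0.26. Nearest to Rgs5 were Xpr1, Ahrr, Ttc19, Morn2 and Gsta4, at distances from 0.11 to 0.15. Ttc19 and Morn2 were listed at 0 in both back libraries, so their likeness to Rgs5 rests in part on values that can be failed estimates. Xpr1, a phosphate exporter, had 8.10 and 5.31 FPKM in the foot and 0.481 and 0.343 FPKM in the back, labelled positive before negative.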

How the data were processed

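Sorted dermal cells were profiled in 4 libraries, 1 per group. Per the file headers, the authors deposited FPKM values with bounds and a status, 1 table per library; the submitters' processing notes name TopHat, Cufflinks and mm9, and the sources used here give no versions, settings or annotation. Cell isolation and TruSeq mRNA sequencing are as in the labels' protocols.

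Here (Python 3.11.15, pandas 2.3.3, numpy 2.4.6, matplotlib 3.10.9) entries of one symbol were summed, and loci joining several genes were kept as 1 unit (975 of 33126). In 1 library 22 symbols that had become calendar dates were restored by matching locus starts. Values were divided by median-ratio factors of 1.10, 1.31, 0.888 and 0.783 (foot labelled positive and negative, back labelled positive and negative), from 4967 units of at least 5 FPKM in all libraries. Before this the median log2 ratio was -0.25 in the foot, 0.16 in the back, and 0.28 and 0.70 for foot against back, labelled positive and negative. FPKM values are printed as deposited; log2 ratios use rescaled FPKM plus 1, which understates ratios of low genes. Units with a status other than OK (459) were left out of counts.

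The markers and gene lists were chosen with earlier results of these data known. The rule for named genes took all 10 markers, ligands and co-receptors of at least 5 FPKM, and of each other list up to 4 genes with the largest within-skin ratio plus the 2 highest; other names are marked where they occur, and genes listed because they were called or listed at 0 were also named after their values were seen. Alternatives were another pseudocount (0.1), no rescaling, upper-quartile rescaling, the highest entry per symbol, leaving out units listed at 0, and other FPKM minimums. Calling and scaling were tested on simulated data whose changed units were drawn from at least 10 FPKM, since a first version drawn from 5 FPKM missed its recovery bar; that test says nothing on units near the FPKM minimum. Protein sequences were not analysed here. Protein-coding status came by symbol from RefSeq on GRCm38.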

Additional observations from a re-analysis of the deposited data

Results flagged for a closer look

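Vegfa had log2 ratios of opposite sign in the skins, -1.65 ± 0.80 in the foot and 0.25 ± 0.22 in the back, labelled positive over negative, a foot minus back difference of -1.90; the rescaled bounds of the back libraries overlapped. Pdpn had -1.10 ± 0.34 in the foot and 1.03 ± 0.22 in the back, a difference of -2.14. Col1a1, a collagen chain of the fibroblast list, had -1.18 ± 0.06 and 0.47 ± 0.39, a difference of -1.64. Of its 4 FPKM values 3 lie just below their own lower bounds. Col1a2, another collagen chain of that list, went the other way, with 1.97 ± 0.04 in the foot and 0.54 ± 0.03 in the back. Its difference was 1.42, so the sign change of Col1a1 does not stand for collagen genes in general. The opposite signs hold for the foot fractions as labelled, a label that the foot Axin2 log2 ratio of -0.14 ± 0.45 does not settle. With the foot fractions exchanged, Vegfa, Pdpn and Col1a1 would each have the same sign in both skins, and Col1a2 would have opposite signs. These differences were not tested, since each group holds 1 library; each ratio is larger than its half-width, a form of the criterion chosen after the values were seen.

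Unnamed entries, which enter no comparison, were found inside the loci of 2 markers. Inside Tek an entry of 51 bases was listed at 180400 FPKM in the foot library labelled negative, and one of 74 bases at 1018 FPKM in the back library labelled positive. Inside Kcnj8 an entry of 124 bases was listed at 192.1 FPKM in the foot library labelled negative. All 3 values lie far above their own upper bounds of 39.0, 11.4 and 16.8 FPKM, so they are not levels. Such short entries were common: of unnamed entries up to 150 bases long, the positive- and negative-labelled foot libraries held 4052 and 5031, and the back libraries of the same labels 1720 and 735. Whether these entries overlap exons of Tek or Kcnj8 was not tested.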

How the results depend on the processing

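No paired analysis was possible because each group holds 1 library, and for the same reason no replicate could be left out. With 0.1 FPKM added in place of 1, the foot against back median of the endothelial markers was -2.28 for the libraries labelled positive and -1.95 for those labelled negative (-0.65 and -0.39 with 1), and that of the mural markers -0.90 for those labelled positive (-0.43 with 1). With FPKM as deposited, the mural median for those labelled negative was 0.17 (-0.17 rescaled) and 3431 units were called there. With a minimum of 1 FPKM, 2877 units were called in the foot, 985 in the back, 3930 and 3354 for foot against back, labelled positive and negative, and 3748 for the foot minus back difference. With no minimum these were 2877, 1018, 3995, 3427 and 3825, against 1790, 576, 2448, 2164 and 2409 at 5 FPKM. Of the other 70 values for medians and counts none moved by more than the half-width or 1.5 times, though with units listed at 0 left out the endothelial foot against back median for the libraries labelled positive was -0.24, against -0.65 with them. Of the values for single markers 153 did not move by more than the half-width and 22 did, 18 of these 22 with 0.1 FPKM added and 4 as deposited. Kcnj8, foot against back labelled negative, was also just under a fold of 2 with upper-quartile rescaling. The foot tables' wider bounds limit Flt1, Tek and Mcam most.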
